A study of Mus musculus with 3 samples.

Results

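The mitochondrial ribosomal protein genes were followed in mouse embryonic heart tubes, the early hearts of embryos at day 9.5. RNA libraries came from 2 Sox7-null tubes and 1 wild-type tube, Sox7 being a transcription factor gene of the endothelium. Members were all gene symbols of the form Mrpl or Mrps followed by a number and at most 1 letter, with 10 or more reads in at least 1 library. This gave 76 of the 23337 genes counted, 47 named for the large subunit and 29 for the small. All 76 symbols that match the pattern reached the read minimum, and all 76 were tested. Both null tubes are labelled Sox7 (-/-), the wild-type tube carries no other allele in the labels, and neither strain nor treatment is stated. Whether a tube is 1 embryo or pooled is not in the labels either. The only replicate spread behind any p-value below is that of the pair of null libraries, and it may be technical.

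Mitochondria have their own ribosome, which makes the few proteins encoded by mitochondrial DNA, all of them parts of the oxidative phosphorylation machinery. Its ribosomal RNAs come from mitochondrial DNA, whereas all of its proteins are encoded in the nucleus, made in the cytosol and imported. Many descend from proteins of the bacterial ribosome and others were added in the mitochondrial lineage. The heart depends heavily on this system, and inherited defects of MRPL3, MRPL44 and MRPS22 in people are known causes of cardiomyopathy.

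The tissue label was checked first. All 8 heart muscle markers were read in every library, together 365705 and 358825 reads in Sox7-null 1 and 2 against 262827 in wild type. Six6, Six3 and Crx, markers of the retina, a tissue that the extraction text names, had 0 reads in every library. Other retina markers, which are also made in other tissues, were read at low counts: Pax6 24, 14 and 18 times, Otx2 13, 3 and 15 times and Rax 2, 0 and 0 times in Sox7-null 1, Sox7-null 2 and wild type. Lhx2, with 5, 2 and 58 reads, fell (log2 fold change -4.04 ± 0.67, edgeR adjusted p = 0.0017). Sox7 itself was read 2 and 7 times in the Sox7-null tubes against 222 times in wild type (log2 fold change -5.63 ± 0.47 SE, edgeR adjusted p = 3.81e-05). Libraries held 13139823 to 13789388 reads assigned to genes. The wild-type library differed in that 22.3% of its reads were not uniquely aligned, against 10.4% and 11.6%.

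Both subunits were lower in the Sox7-null tubes. Members held 0.417% (95% Wilson interval 0.413 to 0.420) of gene reads in Sox7-null 1 and 0.451% (0.448 to 0.455) in Sox7-null 2, against 0.644% (0.639 to 0.648) in the wild type. Large subunit genes made up 0.276%, 0.299% and 0.439% of gene reads, and small subunit genes 0.140%, 0.152% and 0.205%. These intervals hold counting error alone and no variation between tubes. Since PCR copies of a molecule could not be told from separate molecules, the intervals may understate even that error. In bulk RNA, fewer cells of a type and less RNA per cell cannot be told apart.

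Each gene was tested with edgeR's quasi-likelihood test over 13334 genes, with an adjusted p under 0.05 as the threshold. Of 47 large subunit genes, 27 fell and 0 rose, and of 29 small subunit genes, 17 fell and 0 rose. Over all genes tested, 10.2% were lower and 11.3% higher. The median log2 fold change was -0.65 in the large subunit and -0.64 in the small, beside 0.014 over all tested genes. Taken alone against the wild type, Sox7-null 1 gave medians of -0.65 and -0.71 and Sox7-null 2 gave -0.57 and -0.55. A separate count asked only for both null libraries to lie below the wild type in CPM (reads scaled to a common library size, with trimmed mean of M values factors). It held for 70 of 76 members, 45 large and 25 small, against 43% of all tested genes. With DESeq2, 15 large and 9 small subunit genes were lower, at a background of 6.24%, and with limma-voom 26 and 16 were, at 9.73%. All 24 that passed with DESeq2 passed with both other tools.

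**Figure D1:**
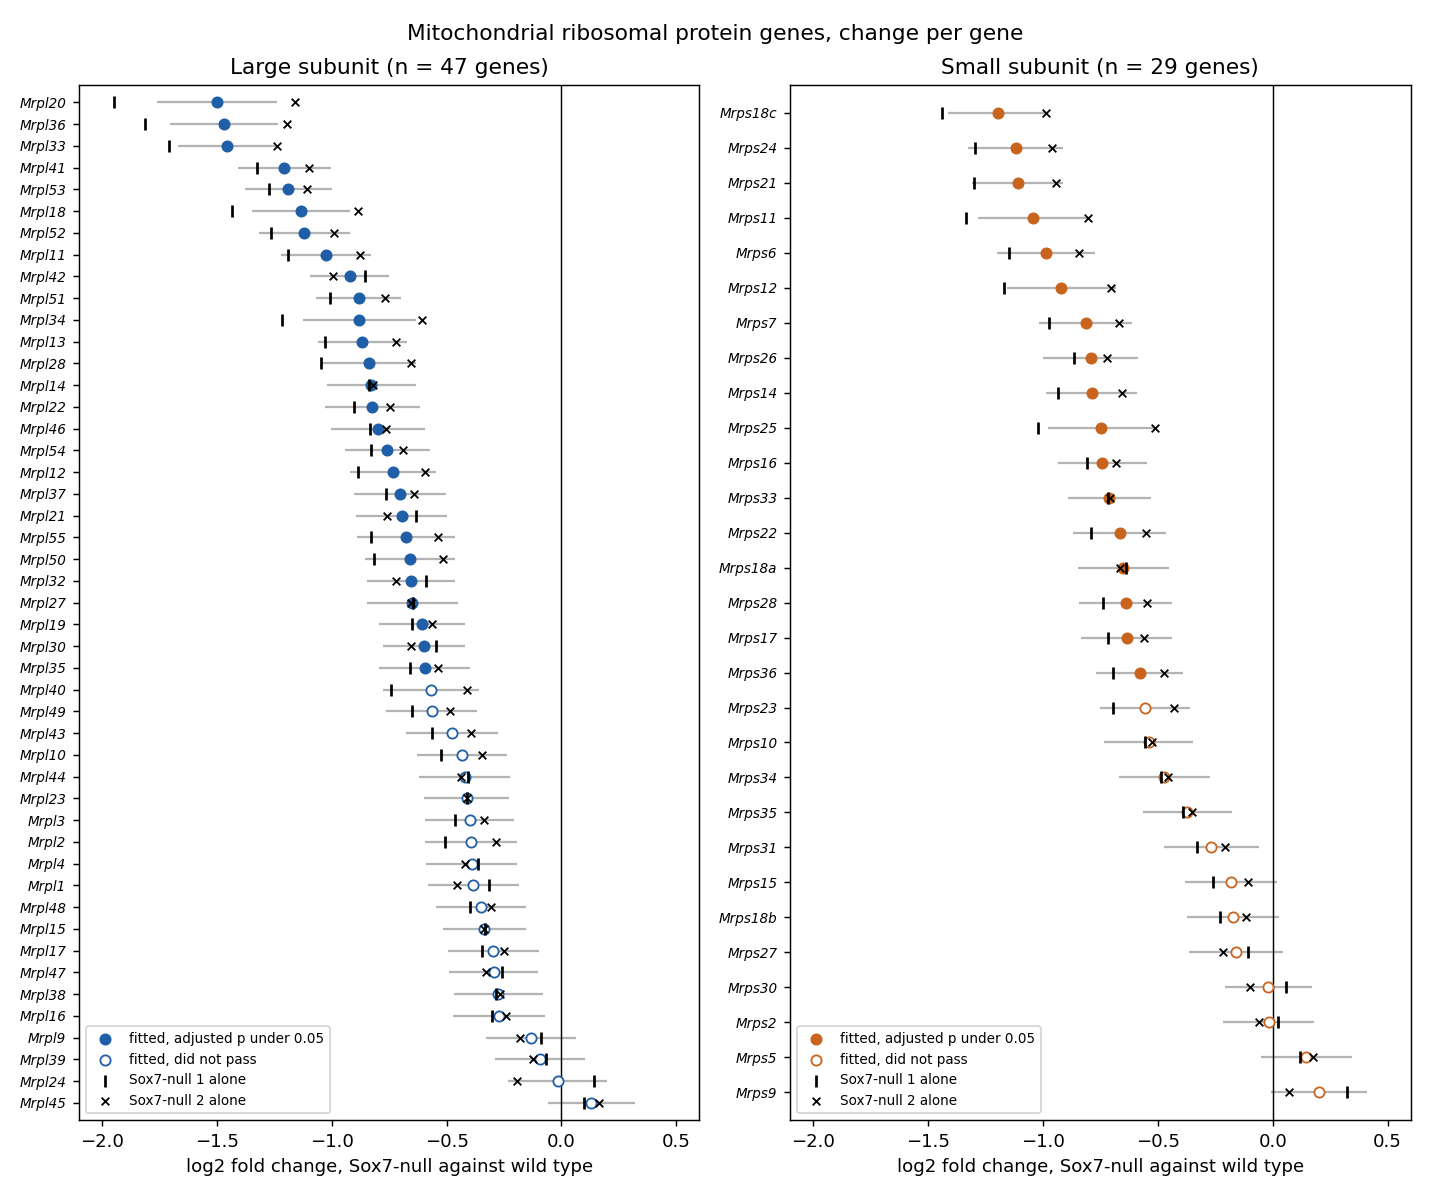
Each row is a gene, with the log2 fold change of the Sox7-null libraries against the wild type on the x axis, as the fitted value (circle, filled where the adjusted p is under 0.05) with its SE (bar) and for each null library alone (tick and cross). All filled circles, 27 in the large and 17 in the small subunit, lie left of 0, and the large subunit spans -1.50 (Mrpl20) to 0.13 (Mrpl45).

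The largest decreases in the large subunit were in homologs of small bacterial proteins. Mrpl36, a homolog of bacterial L36, had 33.8 and 51.8 CPM in Sox7-null 1 and 2, against 118 in wild type. Both null libraries lay below the single wild-type value and differed from each other by 1.54 times (log2 fold change -1.47 ± 0.23 SE, edgeR adjusted p = 0.00145). Mrpl20, whose bacterial counterpart acts early in assembly of the large subunit, had 29.2, 50.5 and 113 CPM (-1.50 ± 0.26, edgeR adjusted p = 0.00226). Here the null libraries themselves differed by 1.73 times, the most of any member. Mrpl33, a homolog of bacterial L33, had 42.5, 58.9 and 139 CPM, with both null libraries far below the wild type (-1.45 ± 0.21, edgeR adjusted p = 0.000998).

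Among proteins that bacteria lack, Mrpl41 had 27.0 and 31.6 CPM against 67.6 in the wild type (log2 fold change -1.21 ± 0.20, edgeR adjusted p = 0.00192). Mrpl53 had 51.9, 58.2 and 125 CPM (-1.19 ± 0.19, edgeR adjusted p = 0.00141), and Mrpl52 had 44.0, 53.3 and 106 CPM (-1.12 ± 0.20, edgeR adjusted p = 0.00246). In all 3 both null libraries lay well below the wild type, and nearer to each other than to the wild type. The value of Mrpl53 is uncertain, because 88.0% of its annotated exon sequence overlaps other genes. Mrpl18 belongs to a family that binds 5S ribosomal RNA in bacteria, an RNA that the mammalian mitochondrial ribosome lacks. It had 88.3 and 129 CPM against 238 and fell by 1.13 on the log2 scale.

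The stalk of the large subunit, which recruits the translation factors that hydrolyse GTP, did not move evenly. Mrpl11, at its base, had 62.4, 77.6 and 142 CPM (log2 fold change -1.02 ± 0.20, edgeR adjusted p = 0.00359). Mrpl12, the stalk protein itself, had 112, 137 and 207 CPM (-0.73 ± 0.19, edgeR adjusted p = 0.0149). Mrpl10, which anchors it, had 55.1, 62.4 and 79.3 CPM and did not pass (-0.43 ± 0.20, edgeR adjusted p = 0.134). Whether these 3 differ from each other was not tested. Mrpl45, which holds the ribosome at the inner membrane next to the exit tunnel, was the only large subunit gene with both null libraries above the wild type, at 92.0 and 96.3 against 86.0 CPM (0.13 ± 0.19, edgeR adjusted p = 0.666).

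In the small subunit the largest decrease was in Mrps18c, 1 of 3 paralogs related to bacterial S18. It had 33.2 and 45.4 CPM against 90.0 in the wild type (log2 fold change -1.20 ± 0.22, edgeR adjusted p = 0.00284). Mrps18a had 37.1, 36.4 and 57.7 CPM (-0.65 ± 0.20, edgeR adjusted p = 0.0337), and Mrps18b had 44.3, 47.8 and 51.9 CPM and did not pass (-0.17 ± 0.20, edgeR adjusted p = 0.580). The paralogs thus stood in the order c, a, b, and the difference between them was not tested. Structures of the ribosome place the products of Mrps18a and Mrps30 in the large subunit. Mrps30 had 99.2, 88.9 and 95.2 CPM, the null libraries lying on either side of the wild type (-0.02 ± 0.19, edgeR adjusted p = 0.957). Mrps36, now known as a subunit of the 2-oxoglutarate dehydrogenase complex despite its symbol, had 78.8, 91.7 and 127 CPM (-0.58 ± 0.19, edgeR adjusted p = 0.0456).

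Proteins of the small subunit with bacterial counterparts showed both ends of the range. Mrps24, the counterpart of S3 at the mRNA entry, had 34.5 and 43.5 CPM against 84.6 (log2 fold change -1.12 ± 0.21, edgeR adjusted p = 0.00299). Mrps21 had 67.0, 85.8 and 165 CPM (-1.11 ± 0.20, edgeR adjusted p = 0.00251). Mrps11 had 17.0, 24.5 and 42.8 CPM (-1.04 ± 0.24, edgeR adjusted p = 0.00925), and its null libraries differed by 1.44 times, the most in this subunit. Mrps7, whose bacterial counterpart starts assembly of the head, had 47.8, 59.1 and 93.9 CPM (-0.81 ± 0.20, edgeR adjusted p = 0.0137). Mrps12, a protein of the decoding centre, had the fewest reads of all members, 204, 288 and 452, and fell by 0.92. Mrps6, which shares annotated exon sequence with Slc5a3, fell by 0.99.

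At the other end, Mrps9 had 65.4 and 54.9 CPM against 52.3 in the wild type (log2 fold change 0.20 ± 0.21, edgeR adjusted p = 0.524). Mrps5, the counterpart of S5, had 58.9 and 61.2 CPM against 54.3 (0.15 ± 0.20, edgeR adjusted p = 0.641). With Mrpl45 they were the 3 members with a fitted value above 0, and in each the gap to the wild type was no larger than its standard error. Of the genes linked to cardiomyopathy, Mrps22 had 43.2 and 51.0 CPM against 74.7 and fell by 0.67 (edgeR adjusted p = 0.0326). Mrpl3 (-0.40 ± 0.19) and Mrpl44 (-0.42 ± 0.20) did not pass.

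**Figure D2:**
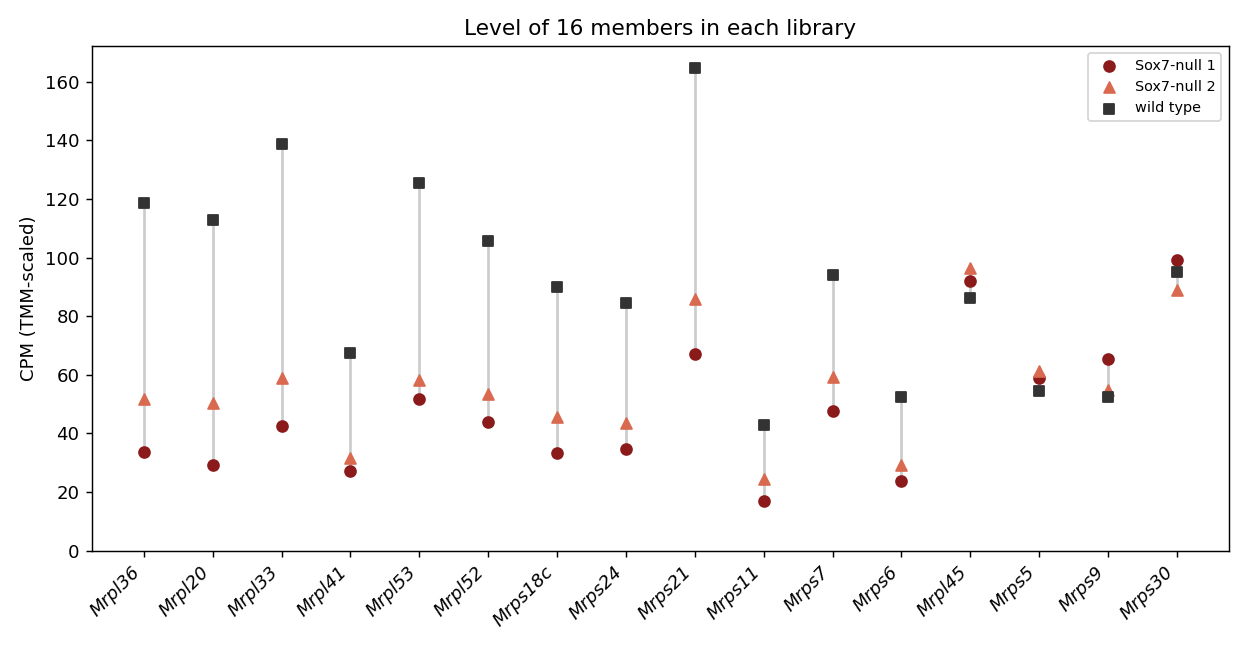
CPM of 16 members in each library (circle, Sox7-null 1; triangle, Sox7-null 2; square, wild type), with a line from the lowest to the highest value. From Mrpl36 to Mrps6 the square lies above both null symbols, while for Mrpl45, Mrps5 and Mrps9 both null symbols lie above it.

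The genes also differed in level. In CPM per kilobase of transcript, which allows levels of different genes to be compared, the wild-type library ranged from 9.13 (Mrps25) to 414 (Mrpl42) with a median of 61.5. Mrpl42 had 229 and 208 in the null libraries, Mrps21 had 150 and 192 against 369, and Mrpl33 had 88.9 and 123 against 291. Mrpl30 came next, with 172 and 160 against 251. In the small subunit Mrps33 (124, 125 and 204) and Mrps36 (124, 144 and 200) followed Mrps21. The lowest were Mrps25 (4.50, 6.39 and 9.13), Mrps26 (5.79, 6.41 and 10.6), Mrps5 (13.1, 13.7 and 12.1), Mrpl17 (11.3, 12.1 and 14.4) and Mrpl35 (10.9, 11.9 and 17.3). The place of Mrps25 is uncertain, because 69.8% of its annotated exon sequence overlaps another gene. The level of Mrpl42 is uncertain because reads that also align to a near-identical copy, Gm6419, may be left out as not uniquely aligned. The same holds for Mrpl22 (Gm6997) and Mrpl23 (Mrpl23-ps1). Reads not uniquely aligned made up 10.4% and 11.6% in Sox7-null 1 and 2 and 22.3% in wild type. The changes of these 3 genes are therefore uncertain too. This order is that of the single wild-type library, for which no spread is known, so whether neighbours in it differ was not tested.

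Transcript length moved with the difference across the whole data set. Short transcripts were lower and long ones higher in the null libraries, and members are short, with a median length of 1221 nt against 2712 nt over the tested genes with a length. Over all genes tested, the median log2 fold change was -0.53 under 1000 nt, -0.19 from 1000 to 2000 nt, 0.047 from 2000 to 4000 nt and 0.26 from 4000 nt. Members stood at -0.79 (30 genes), -0.55 (28), -0.39 (12) and -0.49 (6) in the same 4 classes. Of the members under 1000 nt 25 of 30 fell, which was 83.3%, beside 36.9% of all tested genes of that length. From 1000 to 2000 nt 11 of 28 fell (39.3%, beside 14.5%), from 2000 to 4000 nt 5 of 12 (41.7%, beside 6.59%) and from 4000 nt 3 of 6 (beside 3.72%).

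Within the family, shorter transcripts also had the lower values. Across the 76 members, log2 length and log2 fold change had a Pearson correlation of 0.48 and a Spearman correlation of 0.50, given as a description because the genes share the same 3 libraries. It was 0.54 (Pearson) in the large subunit and 0.39 in the small. Mrpl52 (441 nt), Mrps21 (447 nt) and Mrpl33 (478 nt) are the shortest and all fell by more than 1. Of the 6 longest, Mrps25 (6073 nt), Mrpl19 (5000 nt) and Mrps26 (4278 nt) fell too, by 0.75, 0.61 and 0.79, whereas Mrps5 (4481 nt), Mrpl17 (4164 nt, -0.30 ± 0.20) and Mrps35 (4162 nt, -0.37 ± 0.19) did not pass. Lengths are medians over annotated coding transcripts, and the counts do not show which transcript was made. GC content had a Pearson correlation of -0.18 with the change, and wild-type CPM one of -0.41. Over all tested genes with a length the values were 0.15 and -0.24. The change is computed from the same wild-type library, which by itself pulls the correlation with wild-type CPM below 0.

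**Figure D3:**
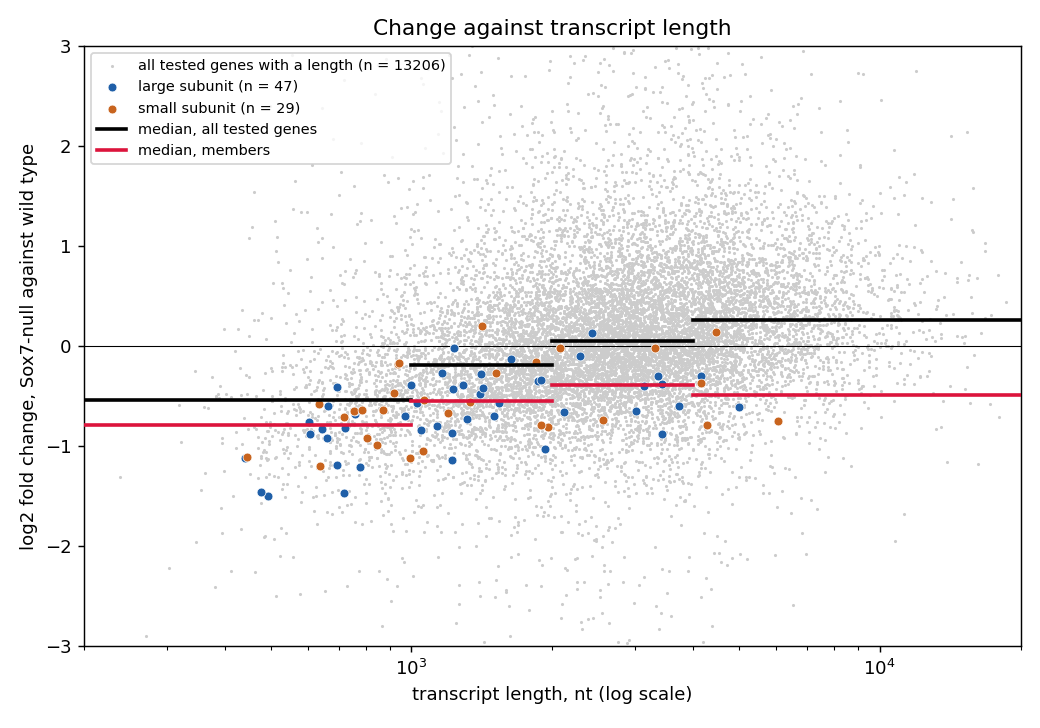
Log2 fold change against transcript length in nt on a log axis, for all tested genes (grey) and for the large (blue) and small (orange) subunit. Medians by length class (under 1000, 1000 to 2000, 2000 to 4000 and from 4000 nt) rise from -0.53 to 0.26 for all genes (black) and lie lower for members in each class (red), from -0.79 to -0.39.

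With a smooth trend on length and GC content removed from each library, fewer members passed. In the large subunit 12 of 47 were lower and 0 higher, and in the small subunit 6 of 29 were lower and 0 higher, while 5.98% of all tested genes were lower and 9.38% higher. The medians became -0.33 and -0.24, beside 0.031 over all tested genes. All 18 of these members had also passed without the correction, so 26 of 44 calls were lost. The trend is fitted to the same 3 libraries, and a true difference shared by short genes would be removed with it. How much of the decrease belongs to genotype and how much to what lowers short transcripts in these libraries was not tested. With a single wild-type library, these parts cannot be told apart.

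The 18 that passed both ways were spread over both subunits. In the large subunit they were Mrpl11, Mrpl12, Mrpl13, Mrpl18, Mrpl19, Mrpl20, Mrpl28, Mrpl36, Mrpl37, Mrpl41, Mrpl51 and Mrpl53. Those of the small subunit were Mrps7, Mrps11, Mrps16, Mrps24, Mrps25 and Mrps26. With the trend removed, Mrpl36 was lowest at -0.98 ± 0.21, followed by Mrps26 (-0.94), Mrpl11 (-0.89) and Mrps25 (-0.88). Mrpl33 (-0.58, adjusted p = 0.0537 in edgeR), Mrps18c (-0.39) and Mrps21 (-0.38) no longer passed, and Mrpl42 moved from -0.92 to -0.14. Which members passed depended on the trend removed. With the length trend alone removed, Mrpl12, Mrpl13, Mrpl20, Mrpl28, Mrpl37 and Mrps11 did not pass in edgeR, whereas Mrpl32, Mrpl33, Mrpl35 and Mrps14 did. Of the 18, all but Mrpl19, Mrpl37, Mrps25 and Mrps26 also passed as counted with DESeq2 and limma-voom, which left 14. Neither of these tools was run with a trend removed. The annotated exons of Mrps25 overlap another gene over 69.8% of their length. Of the 32 members whose exons overlap another gene 12 passed with the trend removed (median -0.40), and of the 44 without overlap 6 did (median -0.23). As counted, 19 of the 32 and 25 of the 44 fell, with medians of -0.71 and -0.62. How reads in the overlapping exons bear on these calls was not tested.

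Signs also changed. Of the 73 members below 0, 60 stayed below 0 with the trend removed, as no member went the other way. Mrps33 (-0.71 to 0.09), Mrpl30 (-0.60 to 0.08) and Mrps36 (-0.58 to 0.15) had passed the test before, and none passed afterwards. The highest value was that of Mrps9, 0.48, which did not pass either.

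**Figure D4:**
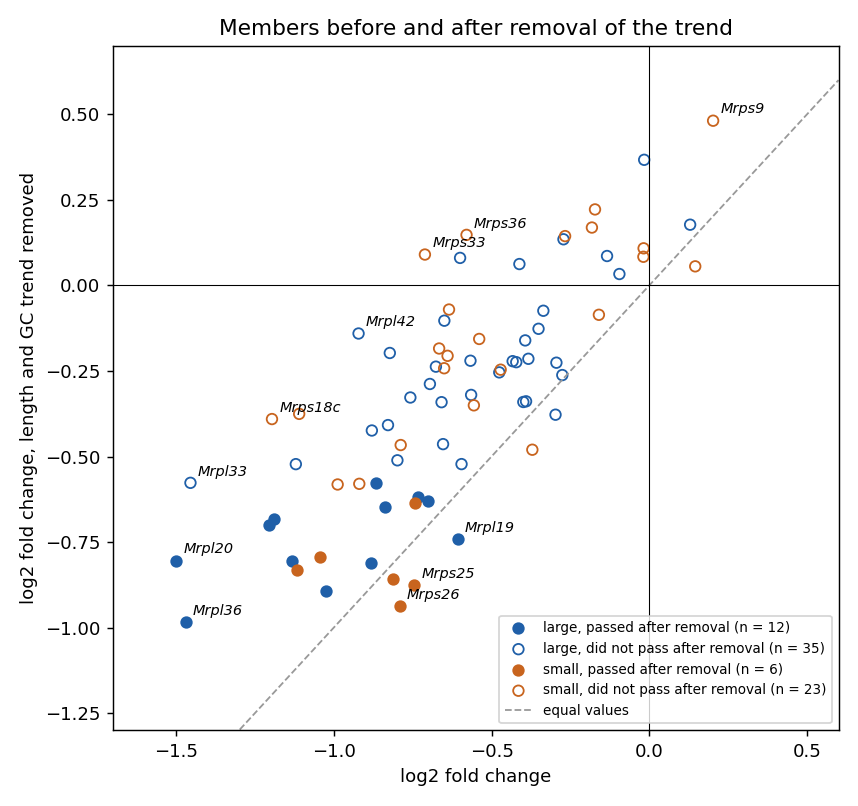
Each circle is a member, with its log2 fold change as counted on the x axis and its value after removal of the length and GC trend on the y axis (filled where it passed after removal). Most circles lie above the dashed line of equal values, and 18 filled circles remain, all between -1.0 and -0.5 on the y axis.

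Bacterial homologs and proteins classed as particular to mitochondria were then taken apart. Of the paralogs related to bacterial S18, Mrps18c was counted as a homolog and Mrps18a and Mrps18b as mitochondria-specific. The 2 classes therefore do not fully separate the proteins by descent. Of 46 homologs of bacterial ribosomal proteins 29 fell, with a median of -0.65, and of 29 mitochondria-specific proteins 14 fell, with a median of -0.57. With the trend removed, 12 and 6 were lower, with medians of -0.36 and -0.25. The difference between the 2 classes was not tested. Counted by place in the ribosome structure rather than by symbol, 28 of 49 large and 15 of 26 small subunit genes fell.

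Members lie on 17 chromosomes, and 32 of 76 have a coding gene on the other strand whose annotated start is within 1000 bases of their own. Mrpl46 and Mrps11 are such a pair within the family, and both fell (-0.80 ± 0.20 and -1.04 ± 0.24). Of the 28 tested partners outside the family 3 rose and 4 fell (14.3%), with a median of 0.089. Over all tested genes 11.3% were higher and 10.2% lower. Of the 32 members 18 fell, with a median of -0.65. The partners are longer, with a median length of 2887 nt, and once the trend on length and GC was taken out the medians were 0.057 and -0.30. In that fit 1 partner was higher and 1 lower, beside 9.38% and 5.98% of all tested genes, and 8 of the 32 members were lower. Tcp1, a chaperonin subunit gene that starts next to Mrpl18, rose by 0.62 ± 0.16, and Ncapd2, a condensin subunit gene next to Mrpl51, by 0.79 ± 0.19. Ndufs6, a complex I subunit gene next to Mrpl36, fell by 0.69 ± 0.17, and with the correction it was at -0.05. These genes start within 1000 bases of each other on opposite strands. Where their exons overlap, reads may be miscounted or left unassigned, because the counting is not stated to use strand.

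Promoter windows from RefSeq (GRCm38.p6, 250 bases before to 50 after the start) matched 67 of 76 members, with 73 windows. They are shown because the members changed in 1 direction. Motifs were searched on both strands in the 300 bases, for NRF1 and GABP, activators of many genes for mitochondrial proteins, for YY1 and for the E-box. CCGGAAG, an ETS motif that GABP binds, was in 32.9% of member windows and 8.86% of all windows. The strict NRF1 motif, a palindrome whose letters stand in capitals in the Mrpl9 and Mrpl39 sequences below, was in 4.11% and 0.971%. A loose form with any base at the sixth position, which includes the strict one, was in 16.4% and 4.60%. For the YY1 motif AAGATGGC the shares were 16.4% and 2.75%. The E-box CACGTG was in 9.59% and 7.15%, and the TATA box TATAAA in 6.85% and 13.6%. Member windows were richer in GC, with a median of 58.3% against 52.7%. The 24 members with the ETS motif had a median log2 fold change of -0.73 and the 43 without it -0.60. For the loose NRF1 motif the values were -0.51 (12 genes) and -0.67 (55 genes), and for YY1 -0.76 (12) and -0.63 (55). A match is a description of the letters, not a bound site.

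The last 160 bases before the start are printed for 3 members that fell (Mrpl36, Mrpl20 and Mrps11) and 2 that did not pass (Mrpl9 and Mrpl39), 5′ to 3′ on the gene's strand, with the motifs in capitals. In Mrpl36 (chr13:73330849-73331008, plus strand) the capitals mark the E-box and the YY1 motif, and in Mrpl20 (chr4:155802718-155802877, plus) the E-box. In Mrps11 (chr7:78782971-78783130, plus) they mark the YY1 motif, and in Mrpl9 (chr3:94443176-94443335, plus) and Mrpl39 (chr16:84735245-84735404, minus) the strict NRF1 motif. These 5 do not stand for all holders of a motif. The strict NRF1 motif was also in the window of Mrpl32, which fell (-0.65 ± 0.19, edgeR adjusted p = 0.0284), and the E-box in that of Mrpl2, which did not pass (-0.39 ± 0.20).
Mrpl36: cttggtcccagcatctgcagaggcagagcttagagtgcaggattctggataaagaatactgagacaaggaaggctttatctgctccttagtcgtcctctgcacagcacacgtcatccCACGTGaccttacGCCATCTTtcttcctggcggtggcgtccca
Mrpl20: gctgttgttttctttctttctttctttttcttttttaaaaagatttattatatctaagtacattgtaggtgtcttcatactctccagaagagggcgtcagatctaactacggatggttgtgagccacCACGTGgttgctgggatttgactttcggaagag
Mrps11: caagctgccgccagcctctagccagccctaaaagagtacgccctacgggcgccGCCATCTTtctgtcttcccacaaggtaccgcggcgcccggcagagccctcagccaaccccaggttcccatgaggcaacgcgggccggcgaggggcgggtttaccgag
Mrpl9: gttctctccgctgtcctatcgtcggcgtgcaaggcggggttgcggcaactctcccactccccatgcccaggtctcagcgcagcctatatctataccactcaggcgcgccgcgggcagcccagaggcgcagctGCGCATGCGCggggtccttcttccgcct
Mrpl39: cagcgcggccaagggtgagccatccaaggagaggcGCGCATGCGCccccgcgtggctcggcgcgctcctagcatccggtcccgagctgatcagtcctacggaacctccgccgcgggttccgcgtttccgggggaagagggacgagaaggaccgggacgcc
Mrpl9 had 59.9 and 56.2 CPM against 63.6 (log2 fold change -0.13 ± 0.20) and Mrpl39 had 61.4 and 59.1 against 64.3 (-0.09 ± 0.20), so that both lay within a standard error of the wild type.

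Other genes of mitochondrial gene expression were read from lists named for their roles. Of the 7 ribosome subunits that carry other symbols, 4 fell and 0 rose, with a median of -0.58 (-0.35 after removal of the trend). Mrp63 had 34.3, 40.6 and 70.7 CPM (log2 fold change -0.92 ± 0.20), Chchd1 was at -0.84 ± 0.19 and Ict1, which releases stalled ribosomes, at -0.73 ± 0.20. Dap3 (0.32 ± 0.19) and Ptcd3 (-0.10 ± 0.18) did not pass. Mrp63 and Ict1 passed with the trend removed, and Chchd1 did not (-0.05).

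Genes that act on the ribosome were called lower at shares near the 10.2% of all tested genes. Of 24 assembly and RNA modification factors 2 fell (8.33%) and 0 rose (median -0.21), namely Fastkd2, an RNA-binding protein of ribosome assembly, at -0.95 ± 0.21, and Mterfd1 at -0.70 ± 0.23. With the trend removed Fastkd2 kept its call, Mterfd1 lost it (-0.24, edgeR adjusted p = 0.497) and Wbscr16 gained one (-0.69, edgeR adjusted p = 0.0477). Of 16 translation factors 1 fell (6.25%) and 0 rose (median 0.065), namely Pdf, which removes the formyl group from new proteins, at -1.11 ± 0.21. Of 13 genes of mitochondrial transcription and RNA processing 0 passed in edgeR (median 0.038). Among 10 nuclear regulators 1 rose, the coactivator Ppargc1b, with 357 and 237 reads against 138 (1.07 ± 0.30, edgeR adjusted p = 0.0227), and it did not pass with the trend removed (0.73). In that fit Esrra, a nuclear receptor gene, was lower instead (-0.67, edgeR adjusted p = 0.0336). Nrf1 (-0.14 ± 0.21), Gabpa (0.28 ± 0.20) and Yy1 (0.10 ± 0.19) did not pass.

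Of 12 genes of mitochondrial import and mass 3 fell (25%) and 1 rose (median 0.071), beside 10.2% lower and 11.3% higher over all tested genes. The import receptor genes Tomm20 (-0.82 ± 0.16) and Tomm22 (-0.81 ± 0.17) and the channel gene Timm23 (-0.87 ± 0.16) fell, and the matrix chaperone gene Hspa9 rose by 0.73 ± 0.18. With the trend removed, Tomm20 (-0.88) and Hspa9 (0.82) passed, while Tomm22 (-0.38, edgeR adjusted p = 0.147) and Timm23 (-0.33, edgeR adjusted p = 0.210) did not. In that fit 5.98% of all tested genes were lower and 9.38% higher. Further families with short transcripts served for comparison. Of 35 complex I subunit genes 17 fell and 0 rose, with a median of -0.53, and of 77 cytosolic ribosomal protein genes 51 fell and 1 rose, with a median of -0.50. After removal of the trend, 3 and 3 of them were lower and 2 and 1 higher, with medians of 0.026 and -0.0038, beside -0.33 and -0.24 in the large and small mitochondrial subunits. Under 1000 nt, the medians without the correction were -0.58, -0.53 and -0.79 for complex I, cytosolic ribosomal and mitochondrial ribosomal protein genes. The differences between these families were not tested.

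**Figure D5:**
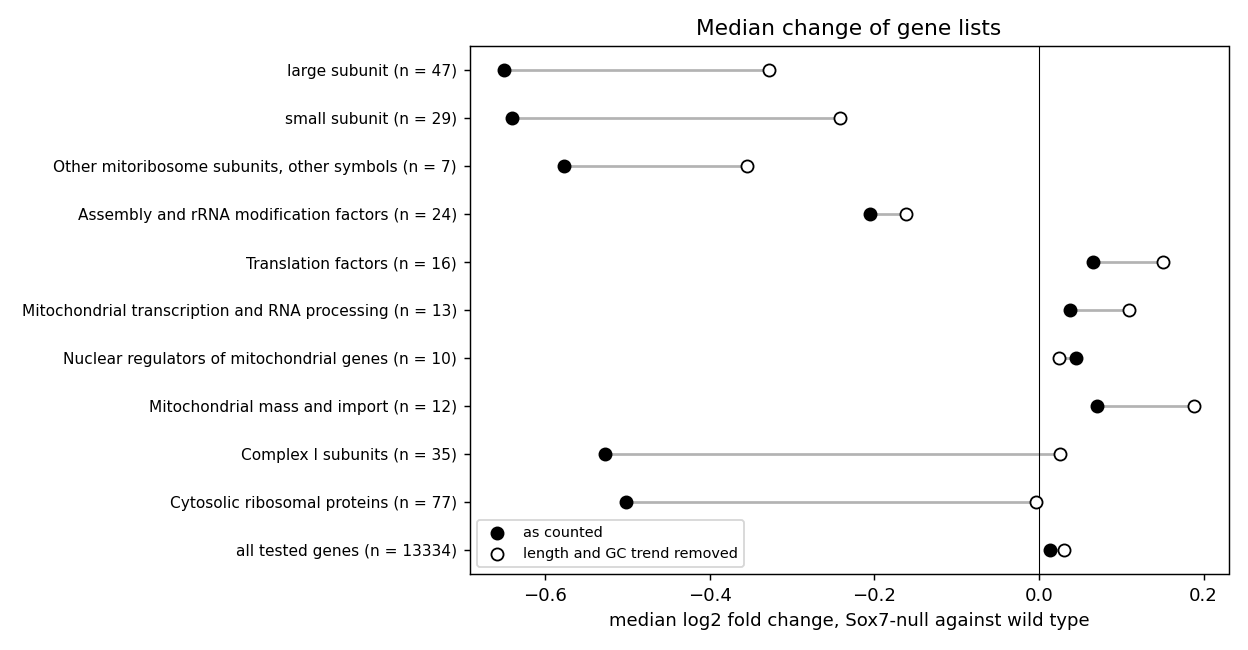
Median log2 fold change of each gene list as counted (filled) and after removal of the length and GC trend (open). Removal moves the cytosolic ribosomal protein and complex I lists from about -0.50 and -0.53 to near 0, and the mitochondrial subunits from -0.65 and -0.64 to -0.33 and -0.24.

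Markers of other cell types moved between the libraries too. The 6 foregut and liver markers summed to 2.00 and 1.45 CPM in the Sox7-null libraries against 44.9 in wild type, and 5 fell. All 5 platelet markers rose, with sums of 336 and 200 against 54.4 CPM, and of 5 macrophage markers 3 rose and 1 fell (45.3 and 23.4 against 19.6 CPM). The erythroid sum was 4511 CPM in Sox7-null 1 against 14332 in Sox7-null 2 and 13894 in wild type, with 0 of 6 tested markers called in edgeR and Hba-a1 at 0 reads. Of 6 endothelial markers 2 rose and 1 fell (387 and 347 against 313 CPM), and of 8 heart muscle markers 4 rose and 0 fell. Their part in the decrease of the members was not tested.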

How the data were processed

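The authors deposited 1 table of whole-number read counts for each library, with 23337 genes by symbol and 5 summary lines. The submitters' processing notes list CASAVA, TopHat2, HTSeq and DESeq2 1.10.1, and the labels' protocols a stranded total RNA kit. Those notes name human builds although the symbols are mouse; annotation and strand setting: not given in the sources used here.

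Library sizes hold no summary lines, among them reads without a feature (8.10% and 8.52% in Sox7-null 1 and 2, 11.7% in wild type). Counts were tested in edgeR 4.0.16 (R 4.3.3, TMM scaling, filterByExpr with minimum count 10), which kept 13334 genes and dropped 10003. Adjustment followed Benjamini and Hochberg across all kept genes. The design of 2 against 1 leaves 1 residual degree of freedom beside 11.8 prior ones, and the single wild-type library is taken to vary as the others do. The SE is the log2 fold change divided by the root of F. Lengths (median over coding transcripts), GC content, exon overlaps and near-identical copies (BLAST 2.17.0, 95% identity over 60% of a transcript) come from GENCODE M21; 13206 kept genes had a length. The trend was fitted per library with mgcv 1.9.3 and given to edgeR as offsets. The scripts were tested on simulated data. Without a length trend, the uncorrected fit recovered 50% of 100 genes changed by 1 on the log2 scale. With a simulated trend of 0.40 per doubling of length, it called 7.01% of unchanged genes, against 0.099% with the trend removed. DESeq2 1.42.0 and limma 3.58.1 were alternatives, beside other scalings, filters and lengths.

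The members and lists were chosen with earlier results of these data known. Named members followed a rule (smallest p per subunit, extremes of level, length and difference between null libraries, a fixed set, and changes of sign with the correction). Mrps9, Mrps14, Mrps16, Mrps22, Mrps35, Mrpl2, Mrpl3, Mrpl13, Mrpl18, Mrpl22, Mrpl28, Mrpl32, Mrpl37, Mrpl44, Mrpl46 and Mrpl51 were added after their values were seen.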

Additional observations from a re-analysis of the deposited data

Results flagged for a closer look

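Reads that HTSeq could not assign to 1 gene lie outside the tested counts. They made up 2.27% of reads in Sox7-null 1 and 2.29% in Sox7-null 2, against 1.97% in the wild type, and are listed because both null libraries lie above the control. Of the 76 members, 32 have annotated exons that overlap another gene, and which genes the ambiguous reads came from is not recorded.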

How the results depend on the processing

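Across 2 other scalings and limma-voom, the counts of members called lower and both medians stayed within 1.5 times or the spread between the null libraries. DESeq2 called 15 large and 9 small subunit genes and 1656 genes in all. Without a filter on low counts edgeR called 0 in the large and small subunits, 0 in the other mitochondrial lists and 0 of 17242 genes, although 28 large and 20 small subunit genes and 4113 genes in all had an unadjusted p under 0.05, and the cause was not tested. With the length and GC trend removed 12 large and 6 small subunit genes were called (medians -0.33 and -0.24), with the length trend alone 10 and 6 (-0.31 and -0.18), and with the longest transcript as the length, a choice made after seeing the data, 9 and 7 (-0.30 and -0.25). The length trend alone left 1758 genes in all and 5 of the other mitochondrial genes, and the longest transcript left 7 of the latter, against 2874 and 12. Leaving out members with exon overlap left 15 of 26 and 10 of 18, since fewer genes are counted, and with the trend also removed 6 of 44 in all. Without 1 null library the medians were between -0.65 and -0.57 in the large subunit (-0.57 without Sox7-null 1) and between -0.71 and -0.55 in the small, with no test. Depth limits little here, since every member had at least 204 reads.

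Values that changed sign are given as log2 fold changes with the length and GC trend removed, with the length trend alone and with the longest transcript, as far as each changed sign, and none of them passed the test. They were 0.13, 0.045 and 0.25 for Mrpl16, 0.063, 0.17 and 0.11 for Mrpl23, 0.37, 0.28 and 0.43 for Mrpl24, 0.086, 0.033 and 0.18 for Mrpl9, 0.17, 0.25 and 0.26 for Mrps15, 0.22, 0.25 and 0.25 for Mrps18b, 0.11, 0.065 and 0.19 for Mrps2, and 0.15, 0.040 and 0.20 for Mrps36. With the first 2 they were 0.080 and 0.0076 for Mrpl30, and with the first and last 0.033 and 0.11 for Mrpl39, 0.084 and 0.16 for Mrps30 and 0.14 and 0.25 for Mrps31. Mrps33 had 0.090 with the first alone and Mrps5 had -0.021 with the length trend alone. Without Sox7-null 2, Mrpl24 (0.14), Mrps2 (0.022) and Mrps30 (0.058) were above 0, and without Sox7-null 1 they were at -0.19, -0.059 and -0.10. No paired analysis was possible because the groups share no replicate number.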
